A study of Homo sapiens with 16 samples.

Results

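IM-9-HR, the hypoxia-resistant subline of the human lymphoid line IM-9, was compared with its parent IM-9. IM-9-HR cells had been kept at 1% oxygen for 24 hours and IM-9 cells at 20% oxygen for 24 hours, with 2 arrays for each. These 4 arrays were taken, by the cell line and condition in their labels, from a set of 16 that also holds RPMI8226, KMS-11 and U266, each again as an HR subline at 1% oxygen and a parent at 20% oxygen. Because IM-9-HR was measured at 1% oxygen alone and IM-9 at 20% alone, effects of resistance and of oxygen cannot be told apart in any value below. The labels do not say how IM-9-HR was selected or whether it is 1 clone, nor whether arrays of the same kind of cell stem from different cultures, so the p-values measure the spread between these arrays, which may be technical. The comparison covers every gene with a probe set of 1 symbol, 18417 in all, of which 12639 were bright enough to be tested.

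Cells at low oxygen stop the hydroxylation of the HIF alpha subunits by the EGLN (PHD) enzymes. The subunits are then no longer marked for destruction by VHL, pair with ARNT and switch on genes for glycolysis, mitophagy, collagen modification and the EGLN enzymes themselves. Cells of the B lineage that grow as lymphoblasts depend on supplied or newly made sterols, lipids and amino acids, which are controlled by other sensors: SREBP for sterols and fatty acids, ATF4 for amino acids, and PERK, IRE1 and ATF6 for the folding load of the endoplasmic reticulum.

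The labels call IM-9 a multiple myeloma-derived line, whereas it is widely described as a B lymphoblastoid line carrying Epstein-Barr virus. Its B cell markers were bright: MS4A1 (CD20) had 11.42 and 11.39 on the log2 intensity scale in IM-9-HR, against 11.25 and 11.40 in IM-9. PAX5, the factor that holds B cell identity, had 8.47 and 8.51 in IM-9-HR, against 8.50 and 8.47 in IM-9. In the parents of the other 3 lines MS4A1 lay between 4.60 and 9.78 and PAX5 between 5.31 and 6.24. SLAMF7, PRDM1 and IRF4, genes of plasma cells, were bright as well, and 13 of 17 plasma cell markers and 23 of 34 B cell markers lay above 6.27, the median of the whole table, on all 4 IM-9 arrays. The T cell genes CD3D and CD3E, the monocyte genes CD14 and LYZ and the stromal gene DCN were under that level on all 4. Of the T and NK cell list 3 of 24 genes were above it on all 4 arrays, as were 4 of 17 myeloid and 4 of 17 stromal genes, and the mean levels of these 3 lists lay between 5.27 and 5.57 on the 4 arrays.

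Array values are given on the deposited log2 intensity scale, array 1 before array 2, and a difference of 1 is a 2-fold change. Differences are IM-9-HR minus IM-9 with their standard error (SE). "Rose" and "fell" are used for genes with a Benjamini-Hochberg adjusted p under 0.05 in a limma fit of all 16 arrays. The 2 IM-9 arrays correlated at 0.9925 over all probe sets, the lowest of the 8 groups, and the 2 IM-9-HR arrays at 0.9956. Between the IM-9 arrays 274 tested genes differed by more than 0.5, against 58 between the IM-9-HR arrays.

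IM-9 had the most genes past the test of the 4 lines. The fit shares the spread of each gene over the 8 groups, although the 2 IM-9 arrays differed more from each other than those of any other group. In IM-9-HR 1814 genes were higher (14.4% of those tested) and 2692 lower (21.3%), together 35.7%. Counts in the gene lists below are to be read against these shares. In RPMI8226 3288 genes changed, in U266 2287 and in KMS-11 1045. Most of the changes in IM-9-HR were small: the median absolute difference of the changed genes was 0.375, and 174 genes were at least 2-fold higher and 79 at least 2-fold lower. By that fold RPMI8226, with 114 higher and 137 lower, and U266, with 173 and 57, were close to IM-9. KMS-11 had far fewer, 20 and 6. The arrays of the groups did not overlap for 65.1% of all tested genes. The median gene stood at -0.0596, and 39.9% of genes were above 0. In RNA from bulk cultures, fewer cells that express a gene and less of its RNA per cell cannot be told apart.

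The largest rises were in genes of the testis, a receptor of developing nerve cells, a growth factor and a few genes of the lymphoid lineage. MAGEC2, a cancer-testis antigen, had 10.30 and 10.06 in IM-9-HR, against 5.67 and 6.27 in IM-9, a difference of 4.21 (SE 0.18, adjusted p = 5.7e-09) or 18.5-fold. PAGE2B, of another X-linked cancer-testis family, had 10.50 and 10.57 in IM-9-HR, against 6.18 and 6.50 in IM-9. SSX3, of yet another such family, had 10.90 and 10.84 in IM-9-HR, against 6.38 and 7.09 in IM-9. For all of these the IM-9 values lay near the median of the table and the IM-9-HR values far above it. ROBO2, a receptor for the guidance cue SLIT, had 10.73 and 10.82 in IM-9-HR, against 6.77 and 7.17 in IM-9. BMP4, a secreted ligand of the TGF-beta family, had 8.65 and 8.55 in IM-9-HR, against 4.83 and 4.94 in IM-9, a difference of 3.71 (SE 0.10, adjusted p = 1.08e-10). IM-9-HR arrays were far above IM-9 arrays for both genes, and in the other 3 lines the differences of ROBO2 and BMP4 lay between -0.34 and 0.17.

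CRLF2, the receptor of the lymphoid cytokine TSLP, had 8.71 and 8.93 in IM-9-HR, against 5.33 and 5.81 in IM-9. FCMR, the receptor for the Fc part of IgM on B cells, had 9.85 and 9.75 in IM-9-HR, against 6.93 and 7.17 in IM-9. KMO, an enzyme of the kynurenine branch of tryptophan breakdown, had 8.30 and 8.25 in IM-9-HR, against 5.40 and 5.43 in IM-9. Each of these 3 genes was at least 6.73-fold higher in IM-9-HR with no overlap of arrays. The remaining members of the 15 largest rises were FMR1NB (3.43), TC2N (3.18), NDRG1 (3.13), CNBD1 (3.01), the epithelial mucin MUC13 (2.86), the oxygen sensor EGLN3 (2.78) and the cancer-testis gene MAGEA1 (2.58).

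**Figure D1:**
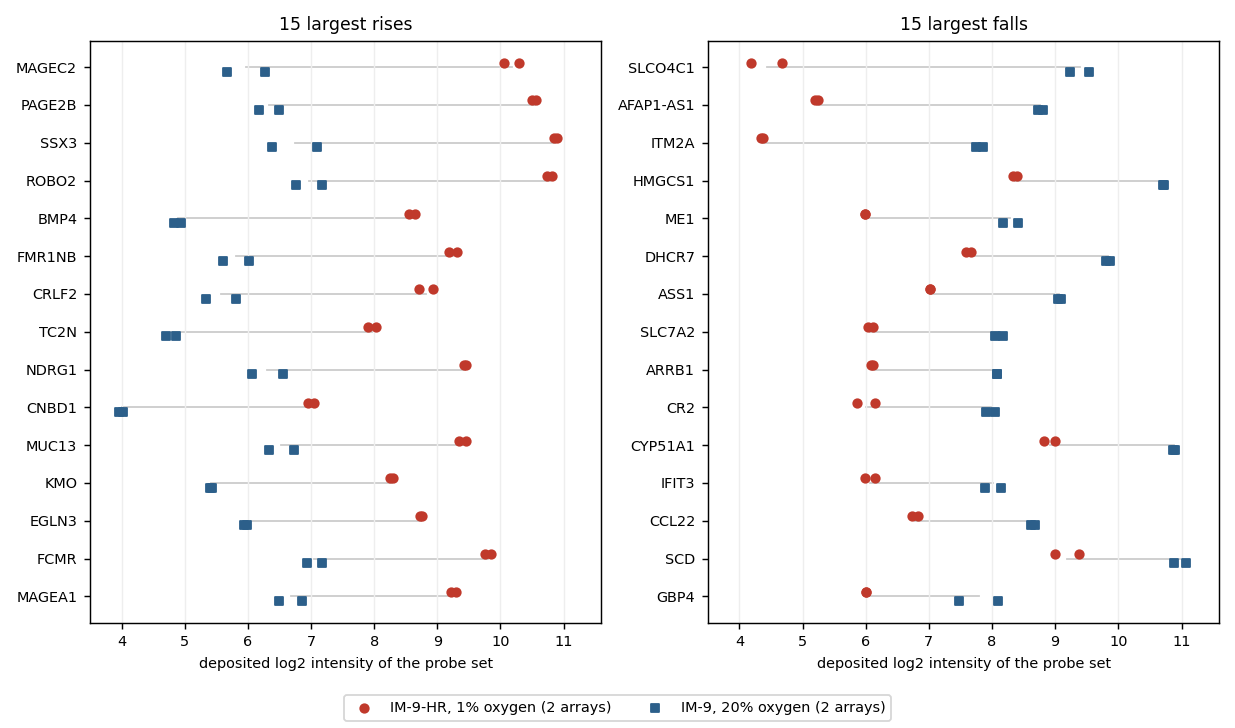
The deposited log2 intensity of the 15 genes with the largest rise (left) and the 15 with the largest fall (right). Red circles are the 2 IM-9-HR arrays, blue squares the 2 IM-9 arrays and grey lines join the group means. The arrays of the groups do not overlap for any of the 30 genes, which were chosen by that rule, and the pairs of one colour lie close together.

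The largest falls held an organic anion carrier, a long noncoding RNA, sterol enzymes, amino acid enzymes and interferon or activation genes. SLCO4C1, a solute carrier for organic anions, had 4.68 and 4.19 in IM-9-HR, against 9.24 and 9.53 in IM-9, a difference of -4.95 (SE 0.21, adjusted p = 3.65e-09). The IM-9-HR arrays lay well under the median of the table. AFAP1-AS1, an antisense long noncoding RNA, had 5.20 and 5.25 in IM-9-HR, against 8.72 and 8.81 in IM-9. ITM2A, a membrane protein of lymphocytes and cartilage, had 4.34 and 4.37 in IM-9-HR, against 7.86 and 7.74 in IM-9. Both were bright in IM-9 and dim in IM-9-HR. ASS1, which makes argininosuccinate on the way to arginine, had 7.01 and 7.02 in IM-9-HR, against 9.04 and 9.09 in IM-9. SLC7A2, a carrier for arginine and other cationic amino acids, had 6.12 and 6.03 in IM-9-HR, against 8.05 and 8.18 in IM-9. ARRB1, the beta-arrestin that ends signalling of G protein coupled receptors, had 6.08 and 6.12 in IM-9-HR, against 8.08 in both IM-9 arrays. These 3 genes fell about equally, by 2.05, 2.05 and 1.98. The other genes of the 15 were HMGCS1 (-2.36), ME1 (-2.30), DHCR7 (-2.20), CR2 (-1.98), CYP51A1 (-1.97), IFIT3 (-1.94), CCL22 (-1.87), SCD (-1.80) and GBP4 (-1.79).

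Genes of the oxygen response rose, by less than in the other lines. Of 45 tested members of a list of HIF targets and hypoxia genes, 25 rose (55.6%), 3 fell and 17 did not pass, with a median of 0.33, against -0.0596 over all genes. NDRG1, a protein induced by hypoxia and differentiation, had 9.45 and 9.43 in IM-9-HR, against 6.55 and 6.07 in IM-9, a difference of 3.13 (SE 0.11, adjusted p = 9.51e-10). EGLN3, the most inducible of the HIF hydroxylases, had 8.76 and 8.73 in IM-9-HR, against 5.99 and 5.94 in IM-9. TMEM45A, a membrane protein induced at low oxygen, had 8.47 and 8.48 in IM-9-HR, against 6.83 and 6.60 in IM-9. All 3 were clearly separated between the groups. BHLHE41, a transcriptional repressor of the clock, rose by 1.48, RIMKLA by 1.24 and BNIP3, a receptor for the removal of mitochondria, by 1.23. ANKRD37, DDIT4 and PDK3, which are hypoxia-induced in many cells, went the other way. ANKRD37 had 8.87 and 9.01 in IM-9-HR, against 9.52 and 9.65 in IM-9, and DDIT4, an inhibitor of mTORC1, had 8.41 and 8.50 in IM-9-HR, against 8.94 and 9.04 in IM-9. Among the sensors EGLN1 rose by 0.69 (SE 0.08, adjusted p = 1.82e-05), whereas HIF1A (0.11), EPAS1 (0.18), ARNT (-0.19), VHL (-0.08) and HIF1AN (0.17) did not pass, so 2 of 7 tested sensors changed. ADM (0.23) and HILPDA (-0.11), commonly among the hypoxia-induced genes, did not pass.

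The letters that HIF binds within the hypoxia response element are shown in the promoters of the 3 HIF-list genes that rose most among those holding them. The search looked for ACGTG on either strand (CACGT read on the strand printed) in the 300 bases from 250 before to 50 after the first listed RefSeq start of a gene (GRCh38.p14). Of 27305 such promoters 21.6% hold it. It was found in 11 of the 19 risen list members that have a promoter in the table, in all 3 that fell and in 7 of the 15 that did not pass. Matches are in capitals, and where CACGT and ACGTG overlap the 6 letters CACGTG are 2 matches in one place.
BHLHE41 (chr12:26124988-26125287, minus strand): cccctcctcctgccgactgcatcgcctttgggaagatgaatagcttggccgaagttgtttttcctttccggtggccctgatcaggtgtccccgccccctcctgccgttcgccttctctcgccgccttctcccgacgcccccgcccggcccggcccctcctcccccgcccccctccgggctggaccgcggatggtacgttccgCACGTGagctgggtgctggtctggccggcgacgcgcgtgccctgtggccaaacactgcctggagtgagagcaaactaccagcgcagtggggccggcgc
RIMKLA (chr1:42380542-42380841, plus strand): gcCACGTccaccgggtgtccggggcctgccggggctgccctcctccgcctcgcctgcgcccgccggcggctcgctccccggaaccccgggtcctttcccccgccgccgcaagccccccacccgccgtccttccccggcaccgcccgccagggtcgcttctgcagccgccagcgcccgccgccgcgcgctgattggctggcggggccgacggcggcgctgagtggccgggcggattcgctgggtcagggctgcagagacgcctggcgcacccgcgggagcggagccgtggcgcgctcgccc
BNIP3 (chr10:131981874-131982173, minus strand): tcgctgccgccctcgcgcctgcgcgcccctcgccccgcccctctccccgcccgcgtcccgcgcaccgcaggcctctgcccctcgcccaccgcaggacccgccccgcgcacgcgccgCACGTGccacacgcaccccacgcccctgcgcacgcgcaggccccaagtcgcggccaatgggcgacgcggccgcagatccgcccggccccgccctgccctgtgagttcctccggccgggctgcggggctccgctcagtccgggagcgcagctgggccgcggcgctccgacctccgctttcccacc
The match of BHLHE41 begins 48 bases before the start, that of RIMKLA 248 bases before it and the first of BNIP3 134 bases before it. A match is a string of letters and does not show binding.

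Some glycolysis genes rose, and pentose phosphate genes fell. Of 20 glycolysis genes 8 rose, 1 fell and 11 did not pass, with a median of 0.16. The glucose carriers SLC2A3 and SLC2A1 rose by 0.59 (SE 0.11, adjusted p = 0.00132) and 0.58, and the aldolase ALDOC by 0.58. PFKM, the muscle form of phosphofructokinase, fell by 0.63, while its relative PFKP rose by 0.24. GAPDH (0.08) and the hexokinase HK2 (0.32) did not pass. GBE1, the branching enzyme of glycogen, had 9.59 and 9.61 in IM-9-HR, against 8.48 and 8.67 in IM-9. Over 10 glycogen genes 3 rose and 2 fell, PPP1R3B by 0.61 in the first direction and PYGB by 0.24 in the second. In the pentose phosphate pathway, which supplies ribose and NADPH, none of 6 genes rose and 4 fell: RPIA by 0.82, TKT by 0.64, PGLS by 0.46 and PGD by 0.22.

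At the entry to the mitochondrion PDK1, the kinase that shuts pyruvate dehydrogenase, had 10.20 on both IM-9-HR arrays, against 9.24 and 9.17 in IM-9, a rise of 1.00 (SE 0.07, adjusted p = 2.81e-07). Of 26 genes for pyruvate handling and the citric acid cycle 2 rose and 11 fell. ME1, the cytosolic malic enzyme that makes NADPH, had 5.98 and 5.99 in IM-9-HR, against 8.17 and 8.41 in IM-9. IDH1, another cytosolic NADPH source, had 8.51 and 8.55 in IM-9-HR, against 9.60 and 9.73 in IM-9. Both were lower on each IM-9-HR array, and ACO1 (-0.85), MDH2 (-0.64) and the citrate synthase CS (-0.58) also fell. None of 25 listed nuclear respiratory chain genes rose and 9 fell, led by CYC1 of complex III (-0.61). The list does not hold every such gene. Of 41 tested genes with the NDUF start of complex I, 3 rose, led by NDUFB1 (0.48), and 13 fell. Among 22 genes of mitochondrial dynamics and import 1 rose (MFN1, 0.25) and 10 fell, led by TIMM23 (-0.59). The 74 mitochondrial ribosomal protein genes, found by the MRP start of their symbols, showed the same direction, with 1 higher and 37 lower, for example MRPL2 (-0.74) and MRPS34 (-0.64).

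Genes of cholesterol synthesis and uptake fell almost without exception. Of 18 tested members 17 fell and none rose (94.4% lower, against 21.3% of all genes), with a median of -1.26. HMGCS1, which makes HMG-CoA at the head of the pathway, had 8.33 and 8.39 in IM-9-HR, against 10.71 and 10.73 in IM-9, a difference of -2.36 (SE 0.08, adjusted p = 6.58e-10). DHCR7, its last enzyme, had 7.59 and 7.67 in IM-9-HR, against 9.80 and 9.87 in IM-9. SQLE, which puts an oxygen atom on squalene, had 9.17 and 9.18 in IM-9-HR, against 10.88 and 10.80 in IM-9. The groups were far apart for each. CYP51A1 (-1.97) and MSMO1 (-1.57), which use oxygen as SQLE does, fell too, as did steps that use none, such as FDPS (-1.52). INSIG1, which holds SREBP in the endoplasmic reticulum and is itself an SREBP target, fell by 1.39, and SREBF2, the gene of the sterol SREBP, by 0.69. PMVK (0.00) was the member that did not pass. Of 6 tested genes of cholesterol efflux and storage 1 rose, NPC2 by 0.18, 2 fell and 3 did not pass. The call of NPC2 was lost when IM-9-HR array 1 or either IM-9 array was left out, and when the 4 IM-9 arrays were fitted alone. SOAT1, which makes cholesteryl esters, fell by 0.51 and MYLIP, which degrades the LDL receptor, by 0.73.

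Fatty acid synthesis fell with it. Of 20 genes 12 fell and 1 rose, with a median of -0.42. SCD, the stearoyl-CoA desaturase, had 8.99 and 9.37 in IM-9-HR, against 10.88 and 11.07 in IM-9. FASN, the fatty acid synthase, had 8.45 and 8.57 in IM-9-HR, against 9.85 on both IM-9 arrays. ACACA, which makes malonyl-CoA, had 7.71 and 7.75 in IM-9-HR, against 8.94 and 8.98 in IM-9. These were lower on every IM-9-HR array, as were ACSL1 (-1.18), FADS1 (-0.82) and SREBF1 (-0.74). PLIN2, which coats lipid droplets, was the gene that rose, by 0.83, and HILPDA (-0.11) and ELOVL6 (-0.02) did not pass. Of 13 fatty acid oxidation genes 3 rose and 1 fell, and CPT1A, the gate for fatty acids into mitochondria, led with 6.58 and 6.75 in IM-9-HR, against 6.02 and 5.85 in IM-9.

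**Figure D2:**
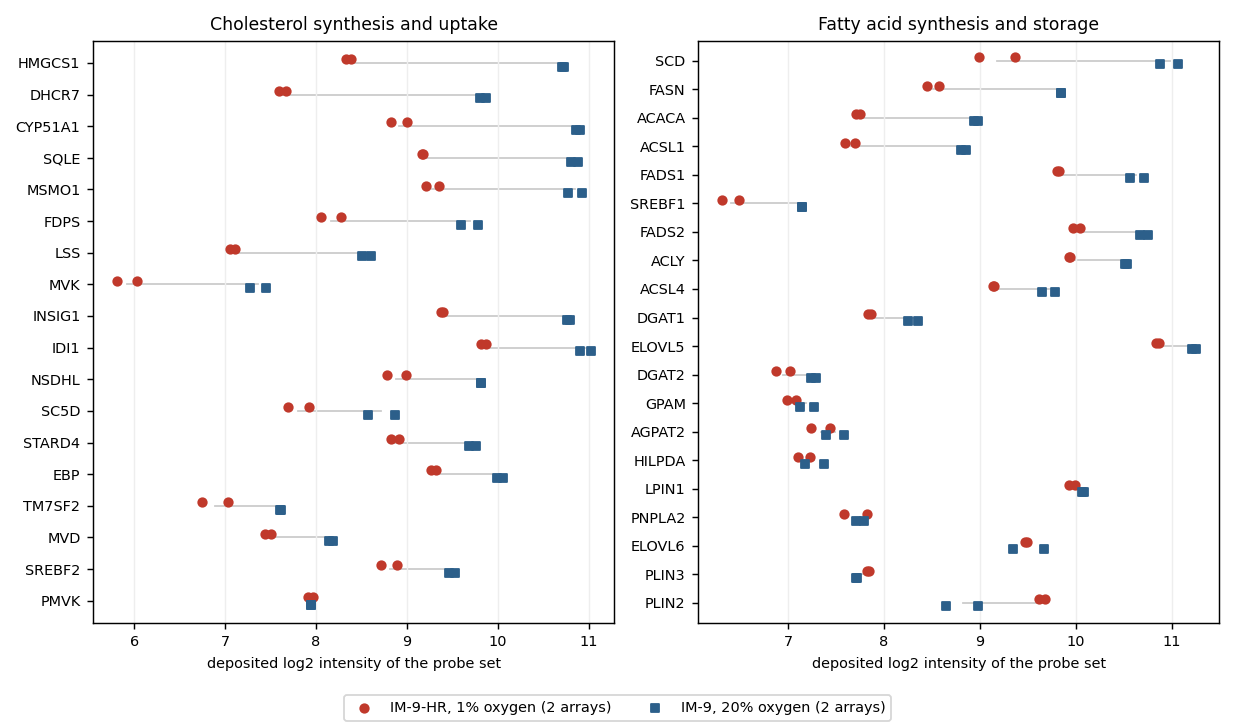
The deposited log2 intensity of the tested genes for cholesterol synthesis and uptake (left, 18 genes) and for fatty acid synthesis and storage (right, 20 genes), ordered by their difference. Red circles are the 2 IM-9-HR arrays, blue squares the 2 IM-9 arrays and grey lines join the means. In the left panel 17 genes lie lower in IM-9-HR, in the right panel PLIN2 at the bottom lies higher and 12 genes lower.

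Genes of the amino acid response under ATF4 fell, and those of the unfolded protein response rose. Of 29 ATF4 genes 18 fell and 2 rose, with a median of -0.32. CTH, which makes cysteine from cystathionine, had 6.04 and 6.34 in IM-9-HR, against 7.46 and 7.80 in IM-9. PHGDH, the first enzyme of serine synthesis, had 8.26 and 8.34 in IM-9-HR, against 9.54 and 9.60 in IM-9. ASNS, the asparagine synthetase, had 7.73 and 7.76 in IM-9-HR, against 8.69 and 8.89 in IM-9. These 3 genes were lower by 1.44, 1.27 and 1.05, and PYCR1 (-0.77), for proline, fell as well. DDIT3 (CHOP) rose by 0.36 (SE 0.06, adjusted p = 0.000557), and ATF4 itself (-0.21) and ATF3 (-0.38) did not pass. Of 17 cytosolic tRNA ligase genes none rose and 9 fell, led by SARS1 (-0.86).

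The letters TGATGNAA, in which N is any base, are the core of the composite element that ATF4 binds with C/EBP factors. On either strand (TTNCATCA read on the strand printed) they are in 3.67% of the 27305 promoters. Among list members with a promoter in the table they are in 4 of 13 that fell, 0 of 2 that rose and 2 of the 9 that did not pass. The 2 fallen holders with the largest change are shown, with the match in capitals.
ASNS (chr7:97872359-97872658, minus strand): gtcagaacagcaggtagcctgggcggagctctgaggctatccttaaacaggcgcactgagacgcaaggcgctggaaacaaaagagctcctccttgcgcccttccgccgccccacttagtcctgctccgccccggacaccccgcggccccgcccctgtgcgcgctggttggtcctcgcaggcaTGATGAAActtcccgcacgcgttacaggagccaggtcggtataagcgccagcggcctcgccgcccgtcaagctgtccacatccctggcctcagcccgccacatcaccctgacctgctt
CHAC1 (chr15:40953221-40953520, plus strand): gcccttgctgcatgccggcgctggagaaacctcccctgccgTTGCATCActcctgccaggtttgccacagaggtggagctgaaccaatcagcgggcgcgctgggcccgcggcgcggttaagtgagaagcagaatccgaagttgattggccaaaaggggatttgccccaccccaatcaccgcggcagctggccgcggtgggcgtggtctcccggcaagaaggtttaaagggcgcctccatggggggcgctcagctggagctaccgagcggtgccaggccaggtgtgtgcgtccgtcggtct
The match begins 68 bases before the start in ASNS and 209 bases before it in CHAC1, a gene for glutathione breakdown that fell by 0.66.

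In the unfolded protein response list 13 of 27 genes rose, 3 fell and 11 did not pass, with a median of 0.19. SEL1L, part of the ubiquitin ligase that clears misfolded proteins, had 10.29 and 10.28 in IM-9-HR, against 9.23 and 9.42 in IM-9. EIF2AK3, the gene of the stress sensor PERK, had 10.04 and 9.99 in IM-9-HR, against 9.17 and 9.21 in IM-9. Both were higher on every IM-9-HR array, and the co-chaperones DNAJB9 (0.61) and DNAJC3 (0.59) and the sensor ERN1 (0.46), the gene of IRE1, rose too. The chaperone HSPA5 (0.07) and XBP1 (-0.10) did not pass, and SDF2L1 (-0.27), PDIA6 (-0.24) and HYOU1 (-0.19) fell. The call of HYOU1 was lost with any 1 of the 4 IM-9 arrays left out and that of SDF2L1 without IM-9-HR array 2. SEL1L lies in the chromosome 14 stretch described below. Heat shock genes were divided, with 4 of 17 higher, led by DNAJB4 (0.62), and 4 lower, led by FKBP4 (-0.51), against 14.4% and 21.3% of all genes. Of 25 proteasome genes 7 fell, led by PSME2 (-0.40), and 1 rose, PSMC1 (0.31), which lies in the same stretch of chromosome 14.

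Genes for making ribosomes and for dividing were lower. None of 26 ribosome biogenesis genes rose and 18 fell, with a median of -0.37, led by RRP1B (-0.67), the polymerase I subunit POLR1B (-0.65) and MRTO4 (-0.58). MYC, which drives this programme in B cells, had 10.00 and 10.01 in IM-9-HR, against 10.77 on both IM-9 arrays, a fall of 0.77 (SE 0.06, adjusted p = 9.03e-07). MXD4 (0.58) and MXD1 (0.47), repressors that compete with MYC for MAX, rose. Of other such repressors in the list MNT (-0.25) fell, and MXD3 (0.11) and MXI1 (0.08) did not pass. Over the MYC network list 3 of 14 genes rose and 4 fell. RNA polymerase subunits followed, with 1 of 31 higher and 17 lower. Of 39 DNA replication and nucleotide genes 24 fell and 1 rose, with a median of -0.29. GINS2 of the replicative helicase had 8.54 and 8.74 in IM-9-HR, against 9.32 and 9.43 in IM-9, and the thymidine kinase TK1 (-0.59) and ORC1 (-0.51) followed. CCNE2, a cyclin of the entry to S phase, was the one that rose (0.82).

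Of 31 mitosis genes 18 fell and 1 rose, with a median of -0.34. CCNB1, the mitotic cyclin, had 9.02 and 8.99 in IM-9-HR, against 9.88 and 9.92 in IM-9, and CDC20 (-0.74), KIF20A (-0.68) and CCNA2 (-0.63) also fell. MKI67 (-0.15) and TOP2A (-0.07), common markers of proliferation, did not pass. CCNG2 (0.70) and the CDK inhibitor CDKN1B (0.42) rose, CDKN3 (-0.75) and CCND2 (-0.32) fell, and 12 of 17 cyclin and inhibitor genes, CDKN1A (-0.35) among them, did not pass. Replication-dependent histones, whose probe sets may hold signal of near-identical copies, had 12 of 40 lower, led by H2AC8 (-0.94), and 1 higher, H2BC14 (0.37).

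**Figure D3:**
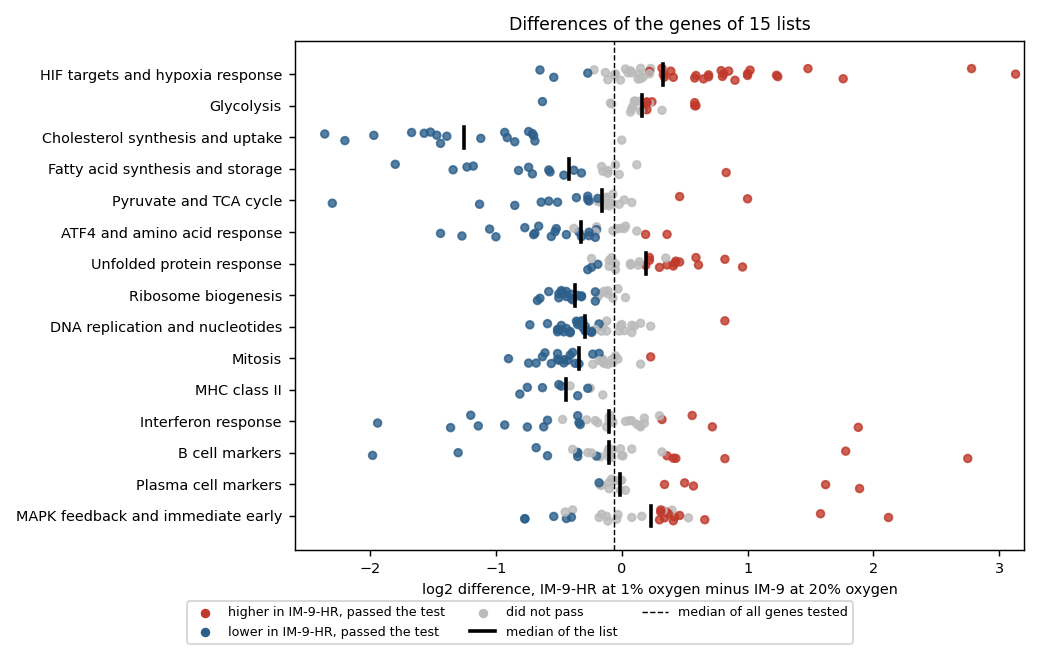
The log2 difference, IM-9-HR minus IM-9, of each tested gene of 15 lists. Each point is a gene, red where it passed the test as higher, blue as lower and grey where it did not pass, black bars are list medians and the dashed line is the median of all genes tested, -0.0596. The cholesterol list has the lowest median, -1.26, and the list of HIF targets the highest, 0.33.

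Redox, heme and lysosome genes moved in both directions. HMOX1, which breaks down heme, had 8.09 and 8.56 in IM-9-HR, against 6.44 and 6.59 in IM-9, whereas the NRF2 target NQO1 rose by 0.22 and GCLM (0.04) did not pass. TFRC, the receptor for transferrin iron, had 11.07 and 11.10 in IM-9-HR, against 11.94 and 11.95 in IM-9. The list had 8 higher and 7 lower of 29. Metallothioneins, which bind zinc and copper, were lower: MT1X fell by 0.91 (SE 0.09, adjusted p = 5.5e-06), MT1E by 0.78 and MT2A by 0.67, although copies of this family resemble each other. TXNIP, which blocks thioredoxin and glucose uptake, rose by 0.65, and its relative ARRDC3 by 1.26. In lysosome and autophagy genes 9 of 25 rose and 2 fell. LGMN, a lysosomal protease, had 10.05 and 10.03 in IM-9-HR, against 8.19 and 8.08 in IM-9, and it too lies in the chromosome 14 stretch. GABARAPL1, which coats autophagosomes, rose by 1.08 and the protease CTSB by 0.93, while BECN1 (-0.01) did not pass.

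Single B cell surface genes changed, while MS4A1 and PAX5 did not pass the test. Of 29 tested B cell markers 6 rose (20.7%) and 8 fell (27.6%), near the 14.4% and 21.3% of all genes, with a median of -0.10. FCMR (2.75) led the rises. FCRLA, an intracellular Fc receptor-like protein of B cells, had 10.56 and 10.49 in IM-9-HR, against 8.79 and 8.70 in IM-9, and the scaffold BANK1 rose by 0.82. CR2 (CD21), the complement receptor that Epstein-Barr virus uses to enter, had 6.14 and 5.86 in IM-9-HR, against 7.91 and 8.05 in IM-9. CD22, which damps signals of the B cell receptor, had 9.16 and 9.06 in IM-9-HR, against 10.49 and 10.34 in IM-9. CR2 and CD22 were thus clearly lower, and the receptor TNFRSF13B (TACI, -0.68) and the receptor chain CD79A (-0.59) fell less. Of 16 plasma cell markers 5 rose and 1 fell: CAV1 by 1.89, CD28 by 1.62, the joining chain JCHAIN by 0.57, PRDM1 (BLIMP1) by 0.50 and TNFRSF17 (BCMA) by 0.34 rose, and IRF4 fell by 0.18. SDC1 (CD138, -0.00) and XBP1 (-0.10) did not pass. CAV1 is also a gene of stromal cells and CD28 of T cells. Of the 8 tested stromal markers ACTA2, a smooth muscle actin, had 8.50 and 8.48 in IM-9-HR, against 7.88 and 8.02 in IM-9, and was the one that rose. The other calls were 3 falls, in CXCL12 (-0.49), THY1 (-0.45) and NGFR (-0.31), of which the call of CXCL12 was lost without IM-9 array 1 and that of NGFR without IM-9-HR array 1 or IM-9 array 1. The part of stromal cells in the result was not tested, while CD3D, CD3E and the stromal DCN were under 6.27 on all 4 arrays.

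Behind the receptor, 7 of 20 signalling genes fell and 3 rose. The phosphatase PTPN6 (-0.60), the kinases LYN (-0.58) and SYK (-0.53) and the PI3-kinase subunit PIK3CD (-0.56) fell. VAV3, a signalling protein downstream of the receptor, had 7.16 and 7.22 in IM-9-HR, against 5.82 and 5.92 in IM-9, and GAB1 rose by 0.79. A second, dimmer GAB1 probe set did not show the rise and differed by -0.0906. Among B lineage transcription factors 7 of 29 rose and 7 fell. ID3, which blocks E proteins, had 7.43 and 7.79 in IM-9-HR, against 6.04 and 6.12 in IM-9, and RUNX1 rose by 0.92. MYB fell by 0.70 and ID2, a relative of ID3, by 0.59.

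Genes that are high in B cells transformed by Epstein-Barr virus had 5 of 27 higher and 5 lower, 18.5% in each direction, near the 14.4% and 21.3% of all genes. The chemokine CCL3 had 9.63 and 9.75 in IM-9-HR, against 8.03 and 8.18 in IM-9, and LAMP3 (1.19) and the lymph node homing receptor CCR7 (0.79) rose. CCL22, a chemokine that draws CCR4-bearing T cells, had 6.73 and 6.83 in IM-9-HR, against 8.68 and 8.62 in IM-9, and EBI3, a subunit of IL-27 and IL-35, fell by 1.39. Of 25 NF-kB factors and targets 6 rose (24.0%, against 14.4% of all genes) and 9 fell (36.0%, against 21.3%). The rises reached 0.44 in TRAF1 and the falls -0.42 in IER2, whose call was lost when IM-9-HR array 1, IM-9-HR array 2 or IM-9 array 1 was left out. Over 34 cytokines and chemokines 6 rose and 11 fell. VEGFA, the hypoxia-induced factor for vessels, rose by 0.34 (SE 0.06, adjusted p = 0.000742), CXCL8 by 0.90, and TGFB1 fell by 0.50.

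Receptors leaned upwards, with 12 of 33 higher and 7 lower. CXCR4, the receptor for CXCL12 that holds lymphoid cells in marrow, had 7.31 and 7.34 in IM-9-HR, against 6.08 and 6.38 in IM-9. TGFBR2 (0.87), IL6ST (gp130, 0.85) and IL10RA (0.63) rose, and IL21R (-0.59), S1PR4 (-0.57) and TNFRSF8 (CD30, -0.52) fell. JAK1, the kinase shared by gp130 and interferon receptors, had 10.64 and 10.55 in IM-9-HR, against 9.61 and 9.62 in IM-9, while STAT4 (-0.82) and STAT5A (-0.64) fell and STAT3 (-0.08) did not pass. In the JAK, STAT and SOCS list 3 of 18 rose and 3 fell, near the 14.4% and 21.3% of all genes.

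Antigen presentation genes were lower. None of 10 MHC class II genes rose and 7 fell, with a median of -0.44: HLA-DPA1 had 11.57 and 11.53 in IM-9-HR, against 12.28 and 12.45 in IM-9, HLA-DPB1 fell by 0.75 and CIITA, the coactivator of the class, by 0.35. Of 11 genes of class I presentation 7 fell and 1 rose, among them the immunoproteasome subunits PSMB9 (-0.48) and PSMB10 (-0.38), NLRC5 (-0.37) and the peptide carrier TAP1 (-0.30). B2M (-0.03), the shared light chain, did not pass. Probe sets of HLA genes may hold signal of related genes.

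Interferon genes were split. Of 34 tested 11 fell and 4 rose, with a median of -0.10. IFIT3, which binds viral RNA in a complex, had 6.15 and 5.99 in IM-9-HR, against 7.89 and 8.14 in IM-9, a difference of -1.94 (SE 0.15, adjusted p = 7.34e-07). IFI44 (-1.36), IFIT2 (-1.20), IFI44L (-1.14) and OAS3 (-0.93) fell as well. GBP2, a guanylate-binding protein, went the other way, with 9.02 and 9.28 in IM-9-HR, against 7.05 and 7.50 in IM-9, whereas its family member GBP4 fell by 1.79. MX2 rose by 0.72 and SAMD9 by 0.56, and MX1 (0.08) and ISG15 (-0.28) did not pass.

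The letters GAAANNGAAA are the core of the interferon-stimulated response element, which the ISGF3 complex and IRF factors bind. On either strand (TTTCNNTTTC read on the strand printed) they are in 3.65% of the promoters, in 7 of 8 fallen interferon genes with a promoter in the table, in both of the 2 risen ones and in 8 of the 16 that did not pass. The 2 with the largest fall are shown, with matches in capitals.
IFIT3 (chr10:89327747-89328046, plus strand): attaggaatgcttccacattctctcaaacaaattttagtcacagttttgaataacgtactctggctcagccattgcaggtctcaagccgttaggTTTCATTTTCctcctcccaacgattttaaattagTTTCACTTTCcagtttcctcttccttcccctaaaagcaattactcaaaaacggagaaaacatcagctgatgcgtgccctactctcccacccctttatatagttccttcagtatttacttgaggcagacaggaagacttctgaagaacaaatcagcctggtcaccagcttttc
IFI44 (chr1:78649539-78649838, plus strand): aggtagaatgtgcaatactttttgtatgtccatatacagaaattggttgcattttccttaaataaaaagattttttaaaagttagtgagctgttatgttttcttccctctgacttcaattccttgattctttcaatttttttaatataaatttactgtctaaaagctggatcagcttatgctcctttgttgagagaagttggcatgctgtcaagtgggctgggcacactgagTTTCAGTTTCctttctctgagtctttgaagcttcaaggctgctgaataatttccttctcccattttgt
IFIT3 holds matches that begin 156 and 122 bases before the start and IFI44 one that begins 18 bases before it.

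In the MAPK feedback list 12 of 30 genes rose and 5 fell, with a median of 0.23. RGS13, which ends G protein signalling in germinal centre B cells, had 7.57 and 7.61 in IM-9-HR, against 5.26 and 5.68 in IM-9. DUSP6, the phosphatase that feeds back on ERK, had 8.23 and 8.33 in IM-9-HR, against 6.58 and 6.82 in IM-9. JUN rose by 0.66, and ETS2 (-0.77) and ETV4 (-0.54) fell with MYC. In the mTOR and insulin list 7 of 23 rose and 4 fell. SESN3, a sestrin induced by FOXO factors, had 6.87 and 6.65 in IM-9-HR, against 5.00 and 5.09 in IM-9, RICTOR of mTORC2 rose by 0.79 and TSC1, a brake on mTORC1, by 0.72, while SESN2, a target of ATF4 and p53, fell by 0.44. MTOR (0.03) did not pass.

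Death and survival genes rose on both sides of the balance. BCL2L11 (BIM), which promotes apoptosis, had 7.37 and 7.48 in IM-9-HR, against 6.32 and 6.49 in IM-9, and BMF rose by 0.38, while the protective BCL2 rose by 0.43. The protective MCL1 (0.16) did not pass, and in the family 5 of 18 rose and 2 fell. Of 21 caspase and death receptor genes 7 rose and 1 fell, among the risen CASP1 (0.92), CFLAR (0.51) and CASP8 (0.48). A second CFLAR probe set, with a mean of 8.48 over all arrays, differed by only 0.086. In the p53 list 5 of 21 rose and 3 fell. TP53INP1 (0.92) and MDM2 (0.68) led, and CDKN1A (-0.35), an inhibitor of the cell cycle, did not pass. DNA repair genes had 7 of 22 lower, led by RAD54L (-0.78) and FANCI (-0.58), and 2 higher, of which ATM rose by 0.64.

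Among enzymes that need oxygen to act on chromatin, 6 of 21 JmjC proteins rose and 3 fell. KDM5B, which removes methyl groups from lysine 4 of histone H3, had 9.53 and 9.55 in IM-9-HR, against 8.21 and 8.46 in IM-9. KDM3A, which acts on lysine 9, had 9.25 and 9.28 in IM-9-HR, against 8.17 and 8.37 in IM-9. They rose by 1.21 and 1.00, and KDM6B (-0.11) did not pass. TET1, which oxidises methylcytosine, had 5.53 and 5.83 in IM-9-HR, against 4.75 and 4.69 in IM-9, all under the median of the table. EZH2 rose by 0.31 and UHRF1, which keeps up DNA methylation, fell by 0.41, within 3 risen and 4 fallen of 18, near the shares of all genes. A second UHRF1 probe set, dim at a mean of 6.02 over all arrays, differed by 0.138. DNMT1 (-0.05) did not pass.

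Cancer-testis genes held the largest rises of the comparison, and 8 of 18 tested rose and 2 fell. Of the listed genes MAGEC2 and SSX3 rose most, and PAGE2B, which the list does not hold, rose by 4.19. MAGEA1 had 9.30 and 9.22 in IM-9-HR, against 6.50 and 6.85 in IM-9. PAGE2 had 8.37 and 8.65 in IM-9-HR, against 6.30 and 7.04 in IM-9, and MAGEC1 had 10.33 and 10.39 in IM-9-HR, against 8.54 and 8.67 in IM-9. These were genes already above the median of the table in IM-9. MAGEA4 (-0.41) and PRAME (-0.20) did not pass, and MAGED2 (-0.37) and MAGED1 (-0.36), which are widely expressed, fell. The SSX and PAGE genes have near-identical copies, so that one probe set may hold signal of several.

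Small nucleolar RNAs, named by the SNORD or SNORA start of their symbols, had more rises than falls: 41 of 129 rose (31.8%, against 14.4% of all genes) and 12 fell. SNORA14A had 7.75 and 7.74 in IM-9-HR, against 5.84 and 6.24 in IM-9, SNORA62 rose by 1.42, while SNORA38B (-0.79) and SNORD4B (-0.73) fell. Some of these RNAs have near-identical copies or lie inside introns of host genes, whose probe sets were not separated from them here. Of the long noncoding RNAs listed, TUG1 rose by 0.43, EPB41L4A-AS1 fell by 0.33 and MALAT1 (0.05) did not pass.

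Other surface and signalling lists held single large changes. NT5E (CD73), which makes adenosine, had 7.35 and 7.28 in IM-9-HR, against 5.58 and 5.85 in IM-9. HAVCR2 (TIM-3), a checkpoint receptor, had 9.31 and 9.27 in IM-9-HR, against 7.68 and 7.85 in IM-9, and CD274 (PD-L1) rose by 0.33. MICA (-0.69) and MICB (-0.39), ligands that alert NK cells, fell, and of 24 genes of this list 3 rose and 6 fell. NOTCH2 had 7.27 and 7.32 in IM-9-HR, against 6.23 and 6.27 in IM-9, with its ligand JAG1 (0.59) and target HES1 (0.53) also higher, in a list with 6 of 26 up and 4 down. NOTCH1 (-0.08) did not pass. Of 26 adhesion genes 7 rose, led by CD99 (0.53) and ITGA4 (0.43), and 4 fell, led by CD9 (-1.22). ANXA1 (1.10) and TPM4 (0.48) led 4 risen cytoskeletal genes of 29, against 5 that fell, with FSCN1 (-0.52) first. The cytoskeletal counts lie near the 14.4% and 21.3% of all genes, whereas the risen share of the adhesion genes is above 14.4%. A second TPM4 probe set, with a mean of 8.48 over all arrays, did not show the rise and differed by -0.0932. The collagen-modifying enzymes PLOD2 (0.90), P4HA1 (0.85) and PLOD1 (0.79) rose, and of 25 matrix genes 7 rose and 2 fell. The efflux pump ABCB1 rose by 0.63 and ABCC4 (-0.64) and ABCC1 (-0.61) fell, 3 up and 3 down of 17, again near the shares of all genes. CD68, counted with the myeloid markers but also a lysosomal protein of many cells, had 8.23 and 7.97 in IM-9-HR, against 6.91 and 7.05 in IM-9.

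Changes were spread unevenly over the chromosomes. On chromosome 14 124 of 391 tested genes rose (31.7%) and 65 fell, while on chromosome 19 5.69% of 984 genes and on chromosome 16 7.06% of 609 genes rose. Windows of 30 neighbouring tested genes were then read in steps of 10, in RefSeq order, and of 1205 windows 22 had a median at least 0.25 above that of all genes and 2 one at least 0.25 below it. They joined into 8 stretches. These were picked for their values, so the counts describe them and carry no test.

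The longest ran from PALS1 to EVL in the distal part of chromosome 14: of its 140 tested genes 85 were higher, 7 lower and 48 did not pass, with a median of 0.35 or 1.27-fold. The other 251 genes of the chromosome had a median of -0.06, with 39 higher and 58 lower. In this stretch the medians of RPMI8226, KMS-11 and U266 were 0.01, -0.00 and -0.03. Anywhere in the genome the highest window median was 0.46 in IM-9, 0.34 in RPMI8226, 0.13 in KMS-11 and 0.26 in U266. The chromosome 14 stretch held TC2N (3.18), LGMN (1.91) and CEP128, a centriole protein with 11.16 and 11.12 in IM-9-HR, against 9.48 and 9.40 in IM-9. A shorter one followed from MIR134 to TMEM179, with 14 of 30 genes higher and 1 lower. On chromosome 1 the stretches from GLUL to PTPRC (14 of 30 higher, 5 lower), from IKBKE to LBR (34 of 70 higher, 4 lower) and from GPR137B to OR2T10 (13 of 30 higher, 1 lower) all had medians of 0.21 or 0.22. They held RGS13, FCMR and KMO, and also CR2, which fell. Chromosome 9 from QRFP to FAM163B had 16 of 40 higher and 1 lower with TSC1 (0.72), and chromosome 6 from IBTK to CASP8AP2 had 13 of 30 higher and 4 lower with NT5E (1.60) and the fall of ME1.

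The reverse was seen at the end of chromosome 4 from CLCN3 to HSP90AA4P, where 19 of 40 genes were lower and 3 higher and 1 window had a median of -0.54. TLR3, the receptor for double-stranded RNA, had 8.58 and 8.63 in IM-9-HR, against 9.87 and 10.12 in IM-9, and CFAP97 had 8.27 and 8.37 in IM-9-HR, against 9.31 and 9.39 in IM-9. In the other 3 lines the medians of this stretch were 0.14, -0.04 and 0.06. Copy number was not measured in these data.

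**Figure D4:**
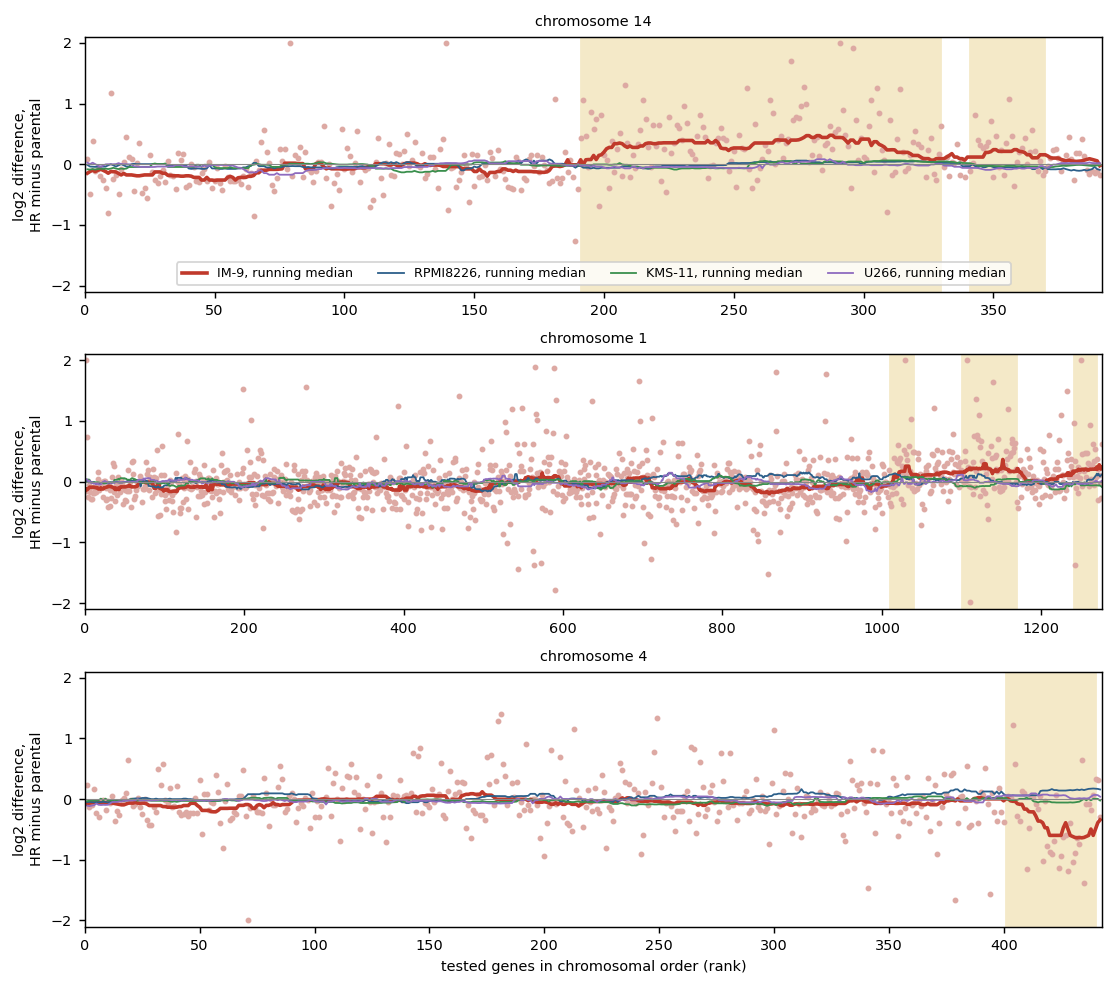
The log2 difference, HR minus parental, of the tested genes of chromosomes 14, 1 and 4 in chromosomal order. Points are genes in IM-9, those beyond 2 in size drawn at the edge, lines are running medians over 31 genes in IM-9 (red) and the other 3 lines, and shading marks the stretches named in the text. The red line runs above the others in the shaded parts of chromosomes 14 and 1 and below them at the end of chromosome 4.

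The difference of IM-9 was set against the mean difference of RPMI8226, KMS-11 and U266 in the same fit. It was larger in IM-9 for 1738 genes (13.8%) and smaller for 2151 (17%), together 30.8%. Larger and smaller are read with the sign, so that a stronger fall in IM-9 counts as a smaller difference. HIF targets were less raised: 26 of 45 members had a smaller difference in IM-9 and 6 a larger one, with list medians of 0.33 in IM-9 and 0.75, 0.74 and 0.96 in RPMI8226, KMS-11 and U266. AK4, a mitochondrial adenylate kinase, had 9.83 and 9.78 in IM-9-HR, against 8.91 and 9.06 in IM-9, a rise of 0.81. A second, dimmer AK4 probe set did not show this rise and differed by -0.0945 in IM-9. With the brighter probe set the AK4 differences were 2.32, 1.03 and 5.28 in the other lines, so that IM-9 was lower by 2.06 than their mean (SE 0.13, adjusted p = 2.79e-07). NDRG1 was one of the members with the larger difference in IM-9, by 1.44.

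The metabolic lists were set apart as well. For 17 of 18 cholesterol genes the difference was smaller in IM-9, with list medians of -1.26 in IM-9 and 0.67, -0.30 and -0.41 in RPMI8226, KMS-11 and U266. The same held for 12 of 20 fatty acid genes, 18 of 29 ATF4 genes, 12 of 20 glycolysis genes and 4 of 6 pentose phosphate genes. In the unfolded protein response 14 of 27 genes had a larger difference in IM-9 and none a smaller one, and the medians were 0.19 in IM-9 and -0.08, -0.11 and -0.01 in the other lines. Differences were also smaller with their sign, that is lower, in IM-9 for 20 of 39 replication genes, 13 of 26 ribosome biogenesis genes, 6 of 10 MHC class II genes and 10 of 20 genes of B cell receptor signalling.

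**Figure D5:**
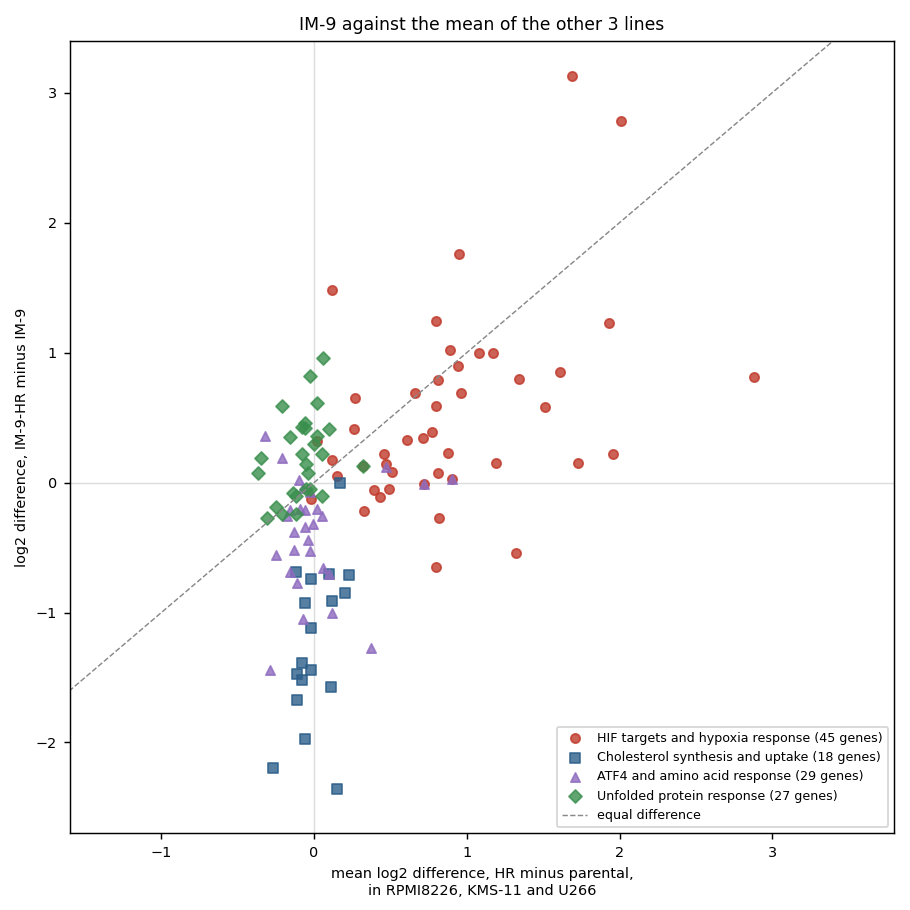
The log2 difference in IM-9 (vertical axis) against the mean difference of RPMI8226, KMS-11 and U266 (horizontal axis) for the genes of 4 lists. Each point is a gene and the dashed line marks equal differences. Most HIF targets lie to the right of that line, and the cholesterol genes lie far below it, near 0 on the horizontal axis.

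Single genes were picked among those past the test in IM-9 and the test of the difference. Their IM-9 difference also had to lie outside the range of the other 3 lines. Of these genes, those furthest from the mean of the other lines in favour of IM-9 were MAGEC2 (4.21), SSX3 (4.03), ROBO2 (3.90), PAGE2B (3.89), BMP4 (3.60), FMR1NB (3.42), TC2N (3.30) and CRLF2 (3.26). On the other side stood SLCO4C1 (-5.72), which rose by 2.27 in RPMI8226, and AFAP1-AS1 (-3.67), ITM2A (-3.51), HMGCS1 (-2.51), ME1 (-2.25) and AK4. DOCK4, an activator of the GTPase RAC, had 5.90 and 5.92 in IM-9-HR, against 6.79 and 7.02 in IM-9, while its differences were 1.18, -0.13 and 1.94 in the other lines. The embryonic globin gene HBE1 had 5.92 and 6.02 in IM-9-HR, against 7.47 and 7.58 in IM-9, and differences of 0.27, -0.27 and 1.19 in the other lines.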

How the data were processed

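RNA of IM-9-HR and IM-9 and of 3 other pairs of lines was measured on 16 Affymetrix Human Gene arrays. The deposited table holds log2 intensities for 33297 probe sets, made with Affymetrix Expression Console 1.3.0 per the submitters' processing notes; the background correction and normalization are not given in the sources used here. The platform annotation gives 1 symbol to 19460 probe sets, several to 1754 and is without an entry for 12083. For 769 genes with several probe sets the brightest was used. Of 232 called genes with several probe sets, 193 had the same sign in every probe set. Genes above 6.27, the median of all values, in at least 2 arrays were tested with limma 3.58.1 in R 4.3.3, in a fit of 8 groups with Benjamini-Hochberg adjustment at 0.05; the code was tested on simulated data. The number of arrays limits the precision, with a median SE of 0.0875. The members and gene lists were chosen with earlier results of these data known. Named were the 15 largest rises and falls with separate arrays, up to 5 called genes per direction of a list with its defining genes and up to 2 that did not pass, and up to 3 genes per family. Also named were the 8 largest differences from the other lines in each direction. These were taken among genes called in IM-9 whose IM-9 difference lay outside the range of the other 3 lines. Alternatives were the replicate block, fewer arrays, filters, normalizations, array weights, variance priors and probe set means.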

Additional observations from a re-analysis of the deposited data

Results flagged for a closer look

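The difference between IM-9-HR and IM-9 departed from the mean difference of RPMI8226, KMS-11 and U266 in the limma test of the difference itself, with 1738 genes larger and 2151 smaller in IM-9. Genes were picked among those also called in IM-9 with a difference outside the range of the other 3 lines. Those with the largest departures were MAGEC2 (4.21), SSX3 (4.03), ROBO2 (3.90), PAGE2B (3.89), BMP4 (3.60), FMR1NB (3.42), TC2N (3.30) and CRLF2 (3.26) above, and SLCO4C1 (-5.72), AFAP1-AS1 (-3.67), ITM2A (-3.51), HMGCS1 (-2.51), ME1 (-2.25), AK4 (-2.06), DOCK4 (-1.99) and HBE1 (-1.95) below, on the log2 scale. Larger and smaller are read with the sign, so that a stronger fall in IM-9 counts as smaller. By list, a smaller difference in IM-9 was found for 17 of 18 cholesterol genes, 26 of 45 HIF targets, 18 of 29 ATF4 genes, 12 of 20 glycolysis genes and 12 of 20 fatty acid synthesis genes. The same was found for 4 of 6 pentose phosphate genes, 6 of 10 MHC class II genes, 10 of 20 B cell receptor signalling genes, 13 of 26 ribosome biogenesis genes and 20 of 39 replication genes. In the unfolded protein response 14 of 27 genes had a larger difference in IM-9. Groups of 2 arrays are too small for a search for single arrays that stand apart, but the IM-9 arrays differed from each other by more than 0.5 for 274 genes and the IM-9-HR arrays for 58.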

How the results depend on the processing

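The 255 named genes that passed the test kept their direction under every alternative run, and 13 named genes that did not pass changed sign under at least 1, GAPDH among them with -0.04 after quantile normalization. The count of higher genes (1814) was 1173, and that of lower genes (2692) 1670, when the 4 IM-9 arrays were fitted alone. That fit has fewer residual degrees of freedom and does not share the spread with the other, less variable groups. What each of these contributed was not tested. Array weights, which were 0.52 for each IM-9 array, left 3754 called genes in the fit of all 16 arrays, against 4506. With 1 array left out at a time, the lone array being assumed to vary like the other groups, the higher genes ranged between 1202 (without IM-9-HR array 2) and 1860, and the lower genes between 1767 (without IM-9-HR array 1) and 2472. The genes with a smaller difference in IM-9 than in the other lines (2151) ranged between 1395 (without IM-9-HR array 1) and 2145. Filters, normalizations, array weights, variance priors and probe set means moved no count by over 1.5 times. Leaving out an array ended the call of HYOU1 in all 4 cases, of NPC2, NGFR, MAX, PDK3, MAGED1, IER2, OR2T10, CASP8AP2, MFN1, GLUL, NQO1, IRF4, PGD, TNFRSF17, MAGED2, FSCN1 and TIMM23 in more than one case, and of CXCL12, PFKP, PYGB and SDF2L1 in one. Same-numbered arrays were not shown to be paired: their deviations correlated at 0.109 for IM-9, 0.205 for RPMI8226, 0.0712 for KMS-11 and -0.048 for U266. With array number as a replicate block, 1871 genes were higher and 2739 lower, and 4231 of the 4506 called genes were called again. Of the tested genes 1817 lay under 6.27 in both IM-9 group means, and 274 calls were among them.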
